A study of Homo sapiens with 8 samples.

Results

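The genes described here are 7 regulators and markers of the epithelial-mesenchymal transition (EMT): the transcription factors SNAI1, SNAI2 and ZEB1, the epithelial surface proteins CDH1 and EPCAM, and the mesenchymal proteins VIM and FN1. They were taken by symbol from a count table of 17010 genes, and all 7 have a row in it. In EMT, epithelial cells dissolve their junctions and take up a motile form with a vimentin cytoskeleton and a fibronectin matrix. SNAI1, SNAI2 and ZEB1 are zinc finger repressors that bind E-box sequences, among them those in the CDH1 promoter. In prostate cancer, loss of E-cadherin and gain of vimentin are widely used signs of an invasive state.

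RNA-seq was done on PC3, an established human prostate cancer cell line derived from a bone metastasis, grown in 3D culture in 24-well plates with 1 mL of medium and 3% serum. The groups were SF3B2 siRNA for 72 h, control siRNA for 72 h, pladienolide B at 0.5 µM for 24 h, and DMSO, for which the labels give no time. SF3B2 belongs to SF3b, a complex of the U2 small nuclear ribonucleoprotein that binds the intron branch point, and pladienolide B is a small molecule that binds SF3b and blocks splicing. Each group had 2 libraries, 8 in all. Separate cultures are not stated in the labels, so a p-value reflects only how these libraries vary, and that variation may be technical.

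Total counts were 61863787 and 48246180 with SF3B2 siRNA, 51661299 and 57417980 with control siRNA, 41504101 and 35461248 with pladienolide B, and 53156845 and 72983584 with DMSO. The pladienolide B libraries stood apart from the rest. Their scaling factors by the trimmed mean of M-values (TMM) were 0.632 and 0.663, against 1.12 to 1.21 in the other 6 libraries. Their median absolute log2 ratio between replicates was 0.55, against 0.15 to 0.29 in the other groups. This ratio was scaled by total counts and left out genes with few reads, keeping 10761 genes with pladienolide B and 13002 to 13370 in the other groups. Medians of replicate differences given further below are over all genes tested, on the TMM scale. Levels within a gene are given below as CPM, reads of a library scaled to a common size with TMM, and a call means a p under 0.05 in edgeR's quasi-likelihood test after Benjamini-Hochberg adjustment over 16488 genes. In bulk samples, fewer cells of a type and less RNA per cell cannot be told apart.

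The targeted gene checked the siRNA labels. SF3B2 lay at 36.4 and 30.1 CPM with SF3B2 siRNA, against 228 and 228 CPM with control siRNA. This is a 6.85-fold lower level (log2 fold change −2.78 ± 0.24, SE). The authors' deposited comparison gives a signed fold change of −6.86, with an adjusted p of 1.39e-12 from a test not stated there. By edgeR the adjusted p was 0.0513, just outside the threshold. It had a range of 1.97e-25 to 1.00 over 14 alternative settings, 5 of which called SF3B2. Its adjusted p was 0.00663 without pladienolide B replicate 1 and 0.00629 without replicate 2.

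Markers of the labelled cell type were present. The simple epithelial keratins KRT7, KRT8, KRT18 and KRT19, 4 of 4 listed, summed to 2043 to 2388 TPM, a share of transcripts corrected for gene length, with SF3B2 siRNA, 2250 to 2389 with control siRNA, 419 to 479 with pladienolide B and 2014 to 2100 with DMSO. The table lists only genes with at least 1 read in every library, and the luminal markers KLK2 and KLK3 are not among its rows. Fibroblast markers, 3 of 8 listed, summed to 5.83 to 18.8 TPM with pladienolide B and 20.8 to 32.6 TPM with DMSO, and the leukocyte markers CD14, CD68 and LYZ, 3 of 8, to 57.1 to 108 TPM with pladienolide B and 140 to 149 TPM with DMSO. Within that sum CD14 and CD68 went opposite ways. CD14 lay at 37.7 and 54.7 TPM with pladienolide B, against 1.79 and 1.34 TPM with DMSO, and CD68 at 18.6 and 51.4 TPM with pladienolide B, against 144 and 135 TPM with DMSO. PECAM1, the 1 of 6 endothelial markers with a row, lay at 0.356 to 1.13 TPM with pladienolide B and 16.2 to 18.6 TPM with DMSO. PTPRC, DCN, PDGFRA, PDGFRB and CDH5 have no row, and the part of these markers in the results below was not tested. KRT15, 1 of 4 basal markers, and SYP, 1 of 5 neuroendocrine markers, lay at 0.283 to 1.83 and 0.415 to 0.519 TPM with pladienolide B, against 39.4 to 39.7 and 1.25 to 1.604 TPM with DMSO.

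Among the 7 genes, expression per length placed VIM highest in every group, with a smaller lead with pladienolide B than in the other groups. In TPM, the authors' unit that allows genes to be compared, VIM averaged 2052 ± 110 with SF3B2 siRNA, 1814 ± 128 with control siRNA, 133 ± 8.03 with pladienolide B and 1500 ± 415 with DMSO (SD, n = 2 each). By group mean FN1 was second everywhere, at 92.5 ± 27.5, 115 ± 5.101, 48.2 ± 42.6 and 76.5 ± 5.61 TPM in the same order. In DMSO cells the order was then EPCAM at 56.3 ± 9.32, CDH1 at 32.2 ± 3.53, SNAI2 at 11.7 ± 2.57, ZEB1 at 9.17 ± 0.603 and SNAI1 at 5.90 ± 1.85 TPM, and no neighbouring pair had overlapping ranges. PC3 cells thus carried mRNA of both the epithelial and the mesenchymal members at baseline.

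The order in both siRNA groups was the same as in DMSO cells, although EPCAM and CDH1 overlapped in both siRNA groups and ZEB1 and SNAI1 overlapped with SF3B2 siRNA. EPCAM averaged 44.9 ± 6.41 TPM with SF3B2 siRNA and 47.2 ± 5.23 TPM with control siRNA, and CDH1 35.3 ± 13.3 and 46.1 ± 8.64 TPM. With pladienolide B the order differed. SNAI1 took the third place at 31.7 ± 1.42 TPM, SNAI2 the fourth at 30.1 ± 3.09 TPM, EPCAM lay at 19.4 ± 6.46 TPM, ZEB1 at 6.10 ± 0.660 TPM and CDH1 came last at 2.72 ± 2.68 TPM. In that order, which is of group means, the ranges of FN1 and SNAI1, and of SNAI1 and SNAI2, overlapped. FN1 lay at 18.1 TPM in pladienolide B replicate 1, below SNAI1 at 30.7 and SNAI2 at 32.3 TPM. In replicate 2 FN1 lay at 78.3 TPM, against 138.7 TPM for VIM.

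**Figure D1:**
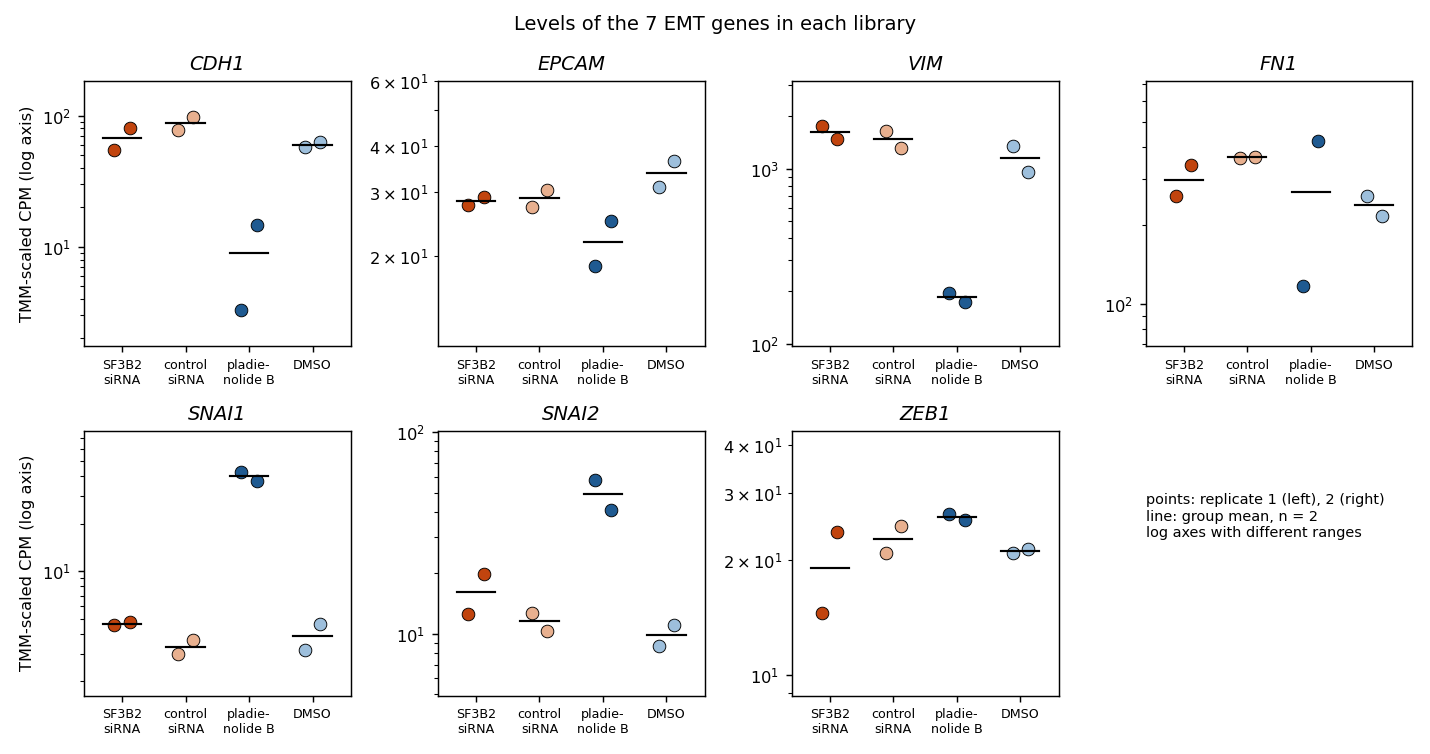
Level of each member (y axes, CPM on the TMM scale, log axes) in the 8 libraries, by group, with points for libraries and lines for group means. With pladienolide B, SNAI1 and SNAI2 lie above and CDH1 and VIM below all other libraries, while the 2 pladienolide B libraries of FN1 lie on opposite sides of both DMSO libraries.

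Pladienolide B changed 5 of the 7 genes, 2 of them higher and 3 lower. SNAI1 and SNAI2 rose, 10.3-fold and 4.998-fold, and CDH1, VIM and EPCAM fell, by factors of 6.71, 6.26 and 1.54. ZEB1 and FN1 did not pass the test. The drug called 68% of all genes tested: 32.5% of all genes tested were higher and 35.5% lower. The 5 of 7 members (71.4%) are thus near the background share. The 2 groups did not overlap for 6 of the 7, all but FN1, against 82.7% of all genes.

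SNAI1 encodes Snail, a repressor of CDH1 and an early EMT inducer. The gene lies on chromosome 20 (GRCh38, 49982980 to 49988886, plus strand) and its canonical GENCODE transcript has 3 exons and 2 introns. SNAI1 stood at 42.7 and 37.3 CPM with pladienolide B, against 3.15 and 4.602 CPM with DMSO. Both treated libraries exceeded every library of the other 3 groups. The log2 fold change was 3.36 ± 0.28 (SE; adjusted p = 3.66e-05 by edgeR, 3.53e-32 to 0.00153 over the alternatives, called in 14 of 14). The reads were 1120 and 877 with pladienolide B, against 194 and 406 with DMSO. SNAI1 has a processed pseudogene, which is not used here, and reads shared with it could have been split in counting.

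SNAI2 encodes Slug, a paralog of Snail, on chromosome 8 (48917598 to 48921429, minus strand), also with 3 exons. SNAI2 stood at 57.6 and 40.9 CPM with pladienolide B, against 8.66 and 11.02 CPM with DMSO. The groups did not overlap, and the log2 fold change was 2.32 ± 0.31 (SE; adjusted p = 0.000348 by edgeR, 3e-12 to 0.00574 over the alternatives, called in 14 of 14). SNAI1 and SNAI2 thus both rose with the drug. In the treated group their replicates differed by 0.19 and 0.49 on the log2 scale, below the median over all genes of 0.60. With DMSO their replicates differed by 0.54 and 0.35, above that group's median of 0.18.

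ZEB1, a zinc finger and homeodomain repressor that represses CDH1 and the miR-200 family, lies on chromosome 10 (31318417 to 31529804, plus strand) with 9 exons. ZEB1 stood at 26.4 and 25.4 CPM with pladienolide B, against 20.9 and 21.4 CPM with DMSO. The treated libraries were both slightly higher on this scale, with a log2 fold change of 0.30 ± 0.26 (SE; adjusted p = 0.342 by edgeR, 0.095 to 0.562 over the alternatives, called in 0 of 14). By library size alone, which lowered the median of all genes to −0.97, the value was −0.58, and the TPM means were 6.10 with pladienolide B and 9.17 with DMSO. Relative to the median of all genes, ZEB1 was at 0.40 under both scalings. ZEB1-AS1, a transcript of the opposite strand that overlaps the gene, held 230 to 290 reads with pladienolide B and 305 to 442 with DMSO, and the sources used here do not say if counting used the strand.

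The 250 bases before a transcript start are shown for the members with an entry in the promoter table of RefSeq (GRCh38.p14), because the E-box in its strong form, CAGGTG or CACCTG on the other strand, is the sequence that SNAI1, SNAI2 and ZEB1 are known to bind. VIM, ZEB1 and FN1, 3 of the 7 members, matched the table, and capitals mark the motif. The windows are chr10:31318966-31319215 (plus strand) for ZEB1, directly before the start of its canonical transcript and 1 of 7 ZEB1 windows in the table, chr10:17227991-17228240 (plus strand) for VIM and chr2:215436069-215436318 (minus strand) for FN1.
ZEB1: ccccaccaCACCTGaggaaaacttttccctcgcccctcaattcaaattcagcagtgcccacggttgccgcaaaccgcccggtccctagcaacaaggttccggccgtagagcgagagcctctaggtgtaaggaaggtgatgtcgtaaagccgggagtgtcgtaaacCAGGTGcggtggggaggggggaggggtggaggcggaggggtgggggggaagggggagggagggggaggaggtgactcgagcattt
VIM: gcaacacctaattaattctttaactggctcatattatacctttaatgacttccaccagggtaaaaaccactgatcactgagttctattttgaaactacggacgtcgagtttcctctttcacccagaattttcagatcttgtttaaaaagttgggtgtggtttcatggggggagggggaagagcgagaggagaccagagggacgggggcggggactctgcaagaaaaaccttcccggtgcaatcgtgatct
FN1: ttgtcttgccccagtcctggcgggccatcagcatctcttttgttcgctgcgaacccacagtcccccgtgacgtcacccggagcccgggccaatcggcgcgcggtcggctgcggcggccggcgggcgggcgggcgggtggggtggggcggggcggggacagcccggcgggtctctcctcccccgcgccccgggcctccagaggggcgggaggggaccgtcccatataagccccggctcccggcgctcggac
The ZEB1 window held the 6 letters at 2 places, starting at −242 and −85 relative to the transcript start, and the VIM and FN1 windows held them at none. Of 35116 RefSeq windows of the same length, 6143 (17.5%) held at least 1 match. A match describes the letters only, and no binding was measured.

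CDH1 encodes E-cadherin, the adhesion molecule of the adherens junction, and is the classic target of SNAI1, SNAI2 and ZEB1. It lies on chromosome 16 (68737292 to 68835537, plus strand) with 16 exons. CDH1 stood at 3.32 and 14.6 CPM with pladienolide B, against 57.5 and 62.4 CPM with DMSO. Both treated libraries were below every other library, but they differed from each other by a factor of 4.399, a larger replicate difference than in 96.3% of genes. The log2 fold change was −2.75 ± 0.59 (SE; adjusted p = 0.00394 by edgeR, 4.5e-06 to 0.0195 over the alternatives, called in 14 of 14). It was −2.04 (adjusted p = 0.00057) without pladienolide B replicate 1 and −4.18 (adjusted p = 3.5e-05) without replicate 2. Overlapping genes included a pseudogene on the same strand, FTLP14, with 9 and 16 reads with pladienolide B against 87 and 343 for CDH1, and with 13 and 33 reads with DMSO against 3537 and 5506 for CDH1.

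EPCAM, the epithelial cell adhesion molecule, lies on chromosome 2 (47369311 to 47387020, plus strand) with 9 exons. EPCAM stood at 18.8 and 24.9 CPM with pladienolide B, against 30.9 and 36.4 CPM with DMSO. The groups did not overlap, and the log2 fold change was −0.62 ± 0.22 (SE; adjusted p = 0.0359 by edgeR). This call held in 6 of 14 alternatives, with adjusted p between 0.000821 and 0.197. Leaving out pladienolide B replicate 1 (adjusted p = 0.0639), DMSO replicate 1 (0.0737), DMSO replicate 2 (0.197) or either control siRNA library (0.0693 and 0.0696) ended it, as did scaling by relative log expression (0.0859), DESeq2 (0.0792) and a fit of only the 4 libraries compared (0.114).

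VIM, the intermediate filament protein of mesenchymal cells, lies on chromosome 10 (17228241 to 17237593, plus strand) with 10 exons. VIM stood at 195 and 174 CPM with pladienolide B, against 1349 and 963 CPM with DMSO. Both treated libraries were below all others, and their replicate difference of 0.16 on the log2 scale was larger than in only 15.4% of genes. The DMSO replicates of VIM differed by 0.49, more than in 85.2% of genes. The log2 fold change was −2.65 ± 0.28 (SE; adjusted p = 9.93e-05 by edgeR, 4.41e-18 to 0.00211 over the alternatives, called in 14 of 14). Reads were 5110 and 4094 with pladienolide B, against 83026 and 84917 with DMSO. VIM-AS1, on the opposite strand and overlapping VIM, had 7 and 16 reads with pladienolide B against 121 and 147 with DMSO.

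FN1, which encodes the matrix protein fibronectin, lies on chromosome 2 (215360865 to 215436068, minus strand) and has the most exons of the 7 genes, 46. FN1 stood at 117 and 419.8 CPM with pladienolide B, against 259.7 and 218 CPM with DMSO. The 2 treated libraries lay on either side of the DMSO libraries and differed by a factor of 3.58, more than in 94.1% of genes. The log2 fold change was 0.17 ± 0.50 (SE; adjusted p = 0.775 by edgeR, 0.00485 to 0.988 over the alternatives). Each treated library on its own, with the spread pooled over the other groups, gave a call, in opposite directions: 0.81 (adjusted p = 0.0121) without pladienolide B replicate 1 and −1.04 (adjusted p = 0.00485) without replicate 2. Scaling by library size alone gave −0.68 (adjusted p = 0.273), and relative to the median of all genes FN1 was at 0.28 with TMM and 0.29 by library size.

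**Figure D2:**
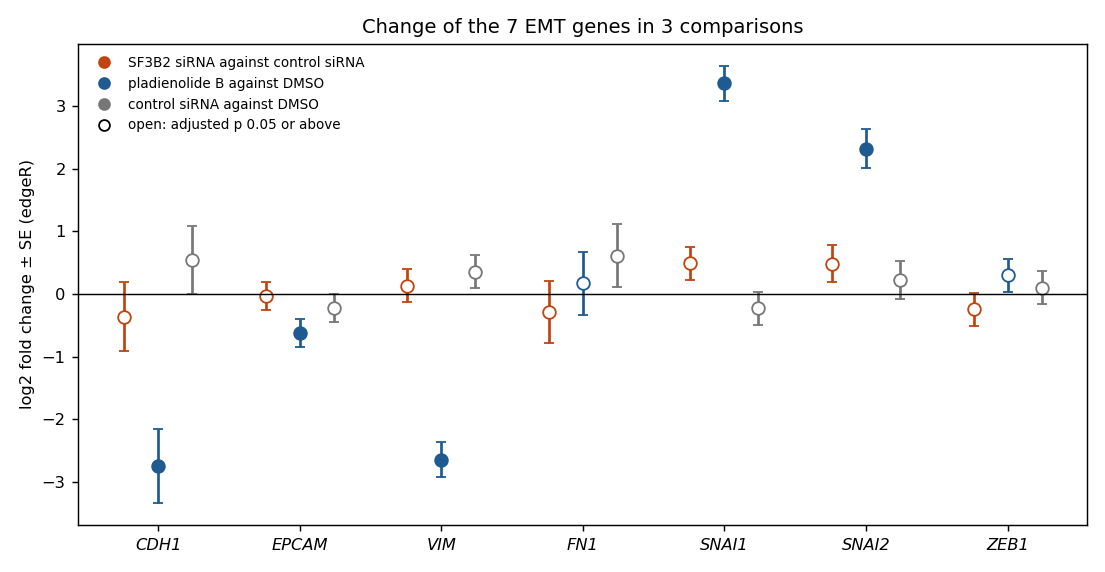
Log2 fold change of each member (y axis, edgeR, bars are the SE; filled points are called) for pladienolide B against DMSO, SF3B2 siRNA against control siRNA, and the 2 control groups. With pladienolide B, SNAI1 and SNAI2 lie at 3.36 and 2.32 and CDH1 and VIM at −2.75 and −2.65, whereas no member lies beyond 0.49 in either direction with SF3B2 siRNA.

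The choice of scaling set the level of all pladienolide B changes. The median log2 fold change over all genes was −0.11 on the TMM scale and −0.97 by library size alone. Relative to the TMM median, the changes were 3.47 for SNAI1, 2.43 for SNAI2, −2.64 for CDH1, −2.54 for VIM and −0.52 for EPCAM. By library size alone the changes relative to that scaling's own median were 3.46, 2.41, −2.63, −2.54 and −0.52 in the same order. Without that subtraction the library-size changes were 2.49, 1.44, −3.60, −3.51 and −1.49, with the direction of all 5 called genes kept. In the authors' deposited table, the fold change, which carries a minus sign where the treated level was lower, was 9.84 for SNAI1, 4.78 for SNAI2, −7.01 for CDH1, −6.55 for VIM and −1.61 for EPCAM. The authors' deposited table gives 1.17 for ZEB1 (adjusted p = 0.552) and 1.08 for FN1 (adjusted p = 0.852), and an adjusted p of 0.0425 for EPCAM.

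With SF3B2 siRNA no member was called. edgeR called 0 of 16488 genes (0%), 638 (3.87%) had an unadjusted p under 0.05, and none of the 7 members was among these. The same fit did not call SF3B2 itself (adjusted p = 0.0513), so the absence of a call does not show that a member was unchanged. The SE in that fit draws on the spread of all 4 groups. It was 0.55 for CDH1 and 0.50 for FN1, against 0.23 and 0.20 with only the 4 libraries compared. DESeq2 called 34 genes over the table but 0 of the 7 members, and no member was called in any of the 14 alternatives. SNAI1 stood at 4.54 and 4.77 CPM with SF3B2 siRNA, against 2.96 and 3.67 CPM with control siRNA, a log2 fold change of 0.49 ± 0.26 (SE; unadjusted p = 0.0979, adjusted p = 1.00 by edgeR). FN1 stood at 258 and 339.9 CPM with SF3B2 siRNA, against 363 and 367 CPM with control siRNA, a log2 fold change of −0.29 ± 0.50 (SE). These were the 2 members whose groups did not overlap, against 39.1% of all genes.

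The other 5 members overlapped between SF3B2 siRNA and control siRNA. SNAI2 stood at 12.5 and 19.7 CPM with SF3B2 siRNA, against 12.7 and 10.3 CPM with control siRNA (log2 fold change 0.49 ± 0.30, SE). It was 0.77 without SF3B2 siRNA replicate 1 and 0.13 without replicate 2. CDH1 stood at 54.8 and 81.1 CPM with SF3B2 siRNA, against 77.8 and 96.9 CPM with control siRNA (−0.36 ± 0.55). ZEB1 stood at 14.6 and 23.6 CPM with SF3B2 siRNA, against 20.9 and 24.5 CPM with control siRNA (−0.25 ± 0.26). VIM stood at 1766 and 1471 CPM with SF3B2 siRNA, against 1635 and 1319 CPM with control siRNA (0.13 ± 0.26), and EPCAM at 27.5 and 28.9 CPM with SF3B2 siRNA, against 27.2 and 30.4 CPM with control siRNA (−0.03 ± 0.22). The log2 changes of CDH1 were −0.11 without SF3B2 siRNA replicate 1 and −0.67 without replicate 2, and those of ZEB1 were 0.05 and −0.64. In the SF3B2 siRNA group the replicates of ZEB1 differed by 0.70 and of SNAI2 by 0.65 on the log2 scale, above the median of 0.32 over all genes. The leukocyte markers summed to 89.2 to 89.6 TPM with SF3B2 siRNA and 122 to 128 TPM with control siRNA, and PECAM1 lay at 8.60 to 12.6 TPM with SF3B2 siRNA and 17.3 to 21.8 TPM with control siRNA.

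The 2 treatments were then compared directly, as the log2 effect of SF3B2 siRNA minus that of pladienolide B. This difference passed the test for 4 of 7 members, against 53.7% of all genes (28.5% higher and 25.2% lower). It was 2.78 ± 0.38 for VIM (SE; adjusted p = 0.000708 by edgeR), 2.38 ± 0.79 for CDH1 (0.0349), −2.87 ± 0.37 for SNAI1 (0.000572) and −1.84 ± 0.43 for SNAI2 (0.00804). VIM and SNAI1 were called in all 13 alternatives, SNAI2 in 12 (adjusted p = 0.101 by library size alone) and CDH1 in 7. The CDH1 call was lost without either SF3B2 siRNA library (adjusted p = 0.0609 and 0.118), either control siRNA library (0.100 and 0.0696) or either DMSO library (0.0681 and 0.0799), and leaving out pladienolide B replicate 2 gave a difference of 3.82. The difference was −0.54 ± 0.37 for ZEB1, 0.59 ± 0.31 for EPCAM and −0.46 ± 0.71 for FN1, and these did not pass.

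The 2 control groups served as background. edgeR called 0 of 16488 genes (0%) between control siRNA and DMSO, 152 (0.922%) had an unadjusted p under 0.05, and DESeq2 called 0 genes. No member had an unadjusted p under 0.05 in the fit of all 8 libraries or a call in any alternative. The log2 differences were 0.61 ± 0.50 for FN1 and 0.54 ± 0.55 for CDH1, the 2 members with all control siRNA libraries higher, and −0.22 ± 0.22 for EPCAM, with both lower. These 3 members with groups that did not overlap compare with 34.8% of all genes. VIM at 0.35, SNAI1 at −0.23, SNAI2 at 0.22 and ZEB1 at 0.10 overlapped. This contrast shares libraries with each of the others. In a fit of only the 4 libraries compared, the differences were 0.61 ± 0.13 for FN1 and 0.54 ± 0.13 for CDH1 (SE). Their unadjusted p was then 0.00408 and 0.00725 by edgeR, with an adjusted p of 0.839 for both.

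Within a library, the ratio of CDH1 to VIM reads does not depend on how libraries are scaled. Its log2 value was −5.88 and −3.58 with pladienolide B, against −4.55 and −3.95 with DMSO, and −5.01 and −4.18 with SF3B2 siRNA, against −4.39 and −3.77 with control siRNA. The ranges of both pairs of groups overlapped, and replicate 1 had the lower ratio in all 4 groups. The difference of the means was −0.48 with pladienolide B and −0.51 with SF3B2 siRNA, and 2 libraries a group allow no exact permutation p below 0.333. Without pladienolide B replicate 1 the first was 0.67 and without replicate 2 it was −1.63, so its direction rests on 1 library. CDH1 and VIM both fell with pladienolide B, and which of them fell more differed between its 2 libraries.

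**Figure D3:**
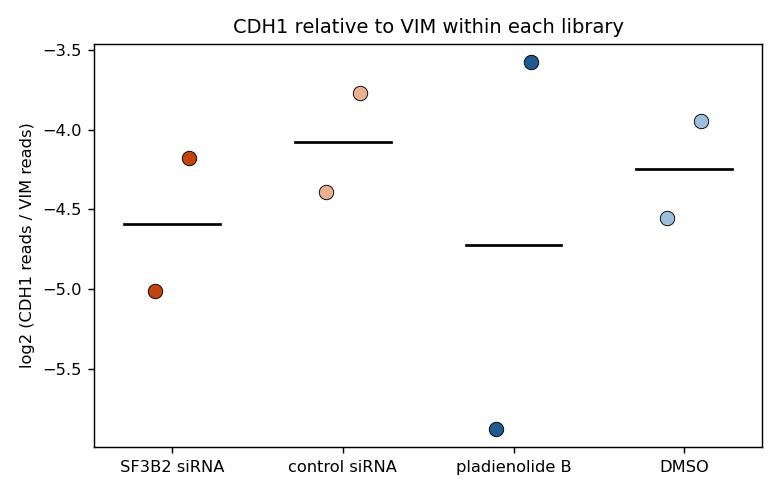
Log2 ratio of CDH1 to VIM read counts (y axis) in each library, by group, with points for libraries and lines for group means. Group means lie between −4.73 and −4.08, and the 2 pladienolide B libraries, at −5.88 and −3.58, span those of all other groups.

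The wider program was described with 6 lists of 184 entries, other than the members. Their counts with pladienolide B stand against 35.5% of all genes that fell and 32.5% that rose. With pladienolide B, 22 of 34 measured junction genes fell, 4 rose and 8 were not called, with a median log2 change of −1.41. PKP2 and DSC2, of the desmosome, changed by −3.53 ± 0.36 (3.81 ± 0.323 CPM with pladienolide B and 43.97 ± 8.09 CPM with DMSO) and −3.85 ± 0.48 (SE). LLGL2, a polarity protein, changed by −3.48 ± 0.24. Those that rose included NECTIN4 (3.65), PARD6B (3.15) and NECTIN2 (1.504), named after their values were seen.

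Of the genes of epithelial identity, 15 of 23 fell, 1 rose and 7 were not called, against 35.5% of all genes that fell and 32.5% that rose, with a median of −1.08. ESRP1, a splicing regulator of epithelial cells, changed by −4.26 ± 0.31 (2.48 ± 0.434 CPM with pladienolide B and 47.7 ± 14.0 CPM with DMSO), the transcription factor EHF by −5.07 ± 0.65, KRT15 by −4.39 ± 0.59 and MAP7 by −3.50 ± 0.51. The gene that rose was ERBB3 (2.83), named after its value was seen. The summed keratins given above were lower in the same 2 libraries. KRT7, KRT8, KRT18 and KRT19 are also genes of this list, so their sum is not separate from its counts.

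Of the mesenchymal genes, 14 of 30 fell, 5 rose and 11 were not called, with a median of −0.92. The called genes, 19 of 30, were near the 68% called among all genes. NT5E, the surface enzyme CD73, changed by −4.05 ± 0.56, the collagen cross-linking enzyme LOX by −3.94 ± 0.76 and the cadherin CDH11 by −3.34 ± 0.34. SPARC stood at 1.87 and 40.3 CPM with pladienolide B, against 244 and 285 CPM with DMSO, a change of −3.65 ± 1.08 that was called in 13 of 14 alternatives (adjusted p = 0.0548 with only the 4 libraries compared). The 5 that rose, named after their values were seen, were CCN1 (2.94), TAGLN (2.02), MYL9 (1.71), CCN2 (1.48) and TNC (0.81). The fibroblast markers, summed above, were lower in the same libraries, and their part in these counts was not tested. LUM, among those markers, is also a gene of this list.

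Of the other EMT transcription factors, 7 of 21 rose, 6 fell and 8 were not called, which is near the 32.5% and 35.5% of all genes, with a median of 0.48. The 21 include ID1, ID2 and ID3, which were listed as antagonists of such factors. FOXM1 rose by 3.29 ± 0.39 (157 ± 78.9 CPM with pladienolide B and 15.98 ± 3.96 CPM with DMSO), whereas HMGA2, a chromatin protein (−3.57 ± 0.25), TCF12 (−2.76 ± 0.40) and ETS1 (−2.26 ± 0.25) fell. By library size alone the counts were 3 rising and 7 falling with a median of −0.41. Relative to the median of all genes the list's median was 0.59 with TMM and 0.57 by library size. Of the TGF-beta pathway, which induces SNAI and ZEB genes, 10 of 25 fell, 6 rose and 9 were not called (3 rising and 17 falling by library size alone). Of all genes 35.5% fell and 32.5% rose, and by library size alone 28.2% of the calls were higher. Its receptors TGFBR2 (−3.20 ± 0.20) and TGFBR3 (−2.46 ± 0.49) fell, and SMAD7, an inhibitor, and SMAD4, the shared mediator, rose by 2.82 ± 0.30 and 2.64 ± 0.20.

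Of the genes that act with or on SNAI and ZEB proteins, 10 of 26 rose, 10 fell and 6 were not called, near the 32.5% and 35.5% of all genes, and by library size alone 4 rose and 14 fell. GSK3B, the kinase that marks Snail for destruction, rose by 2.40 ± 0.25 (518 ± 125 CPM with pladienolide B and 98.3 ± 4.72 CPM with DMSO). SIRT1, a deacetylase, rose by 3.796 ± 0.30 and LATS2, a Hippo pathway kinase, by 3.22 ± 0.27. CTDSP1, a phosphatase, fell, with a log2 change of −5.32 ± 0.25 (3.67 ± 0.341 CPM with pladienolide B and 147 ± 12.01 CPM with DMSO). By library size alone the junction, identity and mesenchymal lists had 2, 1 and 2 genes rising and 27, 21 and 21 falling. Over all 16488 genes, that scaling gave 3313 rising and 8446 falling, with 28.2% of the calls higher.

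**Figure D4:**
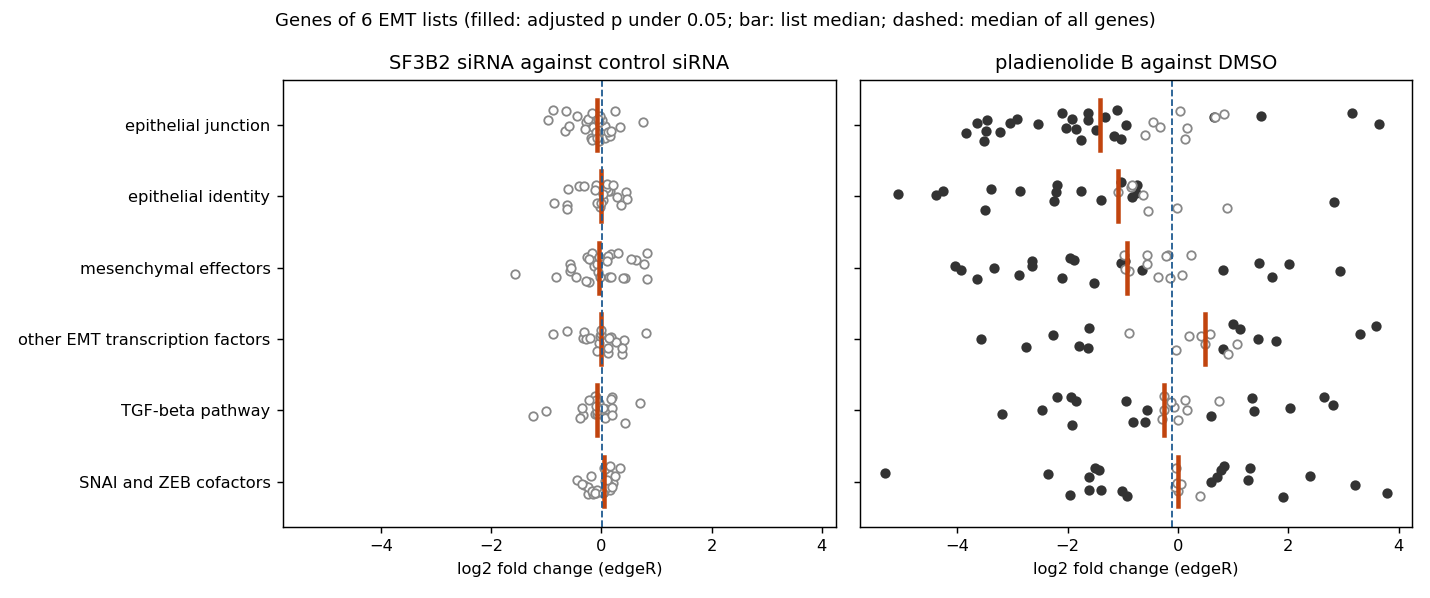
Log2 fold change (x axes, edgeR) of every measured gene of the 6 lists with SF3B2 siRNA (left panel) and pladienolide B (right panel), each against its control, with filled points for called genes, a bar for each list's median and a dashed line for all genes. With pladienolide B the medians of the junction, identity and mesenchymal lists, −1.41, −1.08 and −0.92, lie below the all-gene median of −0.11. That of the other transcription factors, ID genes included, lies above the all-gene median at 0.48.

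With SF3B2 siRNA, none of the 6 lists held a called gene, by edgeR or by DESeq2. At an unadjusted p under 0.05 stood 3 junction, 1 identity, 0 transcription factor, 1 mesenchymal, 3 TGF-beta and 0 cofactor genes, and the medians lay between −0.08 and 0.05, against 0.01 for all genes. The genes with the smallest unadjusted p in each list, none called, were PERP at −0.59 and VCL at −0.64, ESRP1 at −0.62 and CD24 at 0.35, FOXM1 at 0.80 and ID1 at −0.88, TAGLN at 0.83 and CCN2 at 0.63, TGFBR3 at −1.24 and TGFB2 at −0.997, and LATS2 at −0.45 and RCOR1 at −0.36 (adjusted p = 1.00 for each, edgeR). Between the control groups no list held a called gene either, and the medians ran between −0.02 and 0.13. The effects of SF3B2 siRNA and the drug differed by the direct test for 21 junction genes (12 without control siRNA replicate 1, 13 without DMSO replicate 2), 12 identity genes, 12 mesenchymal genes (21 without pladienolide B replicate 2), 11 transcription factors, 11 TGF-beta genes and 16 cofactors, of 34, 23, 30, 21, 25 and 26 tested, against 53.7% of all genes.

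Pladienolide B changes differed with the number of exons, and the members were set beside protein-coding genes of the same exon number as a description. The median log2 change was 1.56 for the 343 genes with 1 exon, 0.41 for the 765 with 3 exons, −0.47 for the 705 with 9, −0.51 for the 658 with 10 and −0.95 for the 3384 with 15 or more. SNAI1 and SNAI2, at 3 exons, lay above the upper quartile of that class, 1.85. VIM, at 10 exons, lay below the lower quartile of −1.88, and CDH1, with 16, below that of −2.08. ZEB1 and EPCAM, with 9 exons, lay inside the quartiles of −1.89 and 0.81, and FN1 inside those of −2.08 and 0.25. With SF3B2 siRNA the class medians ran from −0.06 to 0.06.

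**Figure D5:**
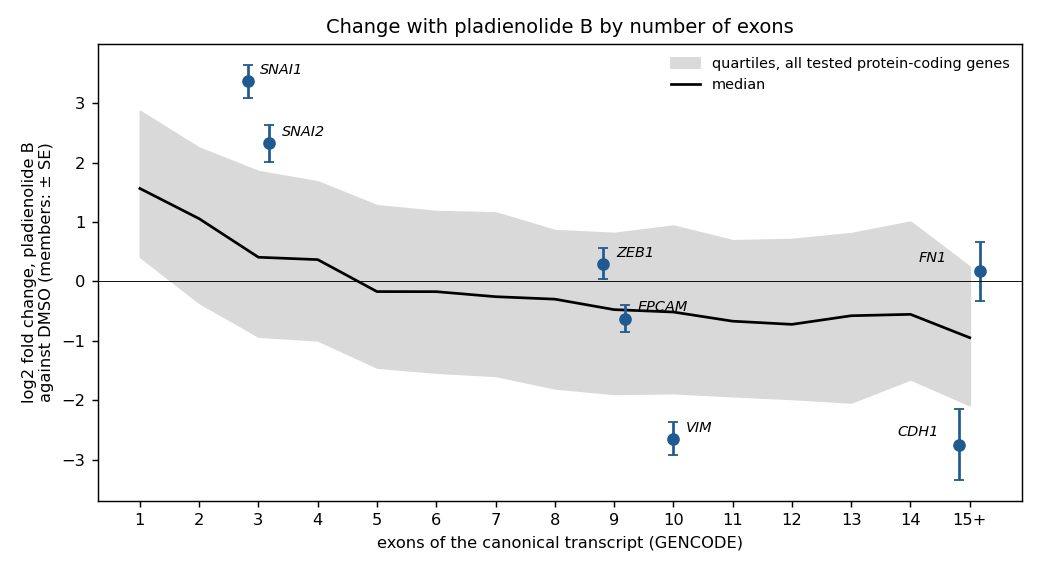
Log2 fold change with pladienolide B against DMSO (y axis) by number of exons of the canonical transcript (x axis), with the median (line) and quartiles (band) of protein-coding genes and the 7 members as points with their SE. Class medians run from 1.56 at 1 exon to −0.95 at 15 or more, with SNAI1 and SNAI2 above and VIM and CDH1 below the quartiles of their classes.

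The genes with the most similar profile over the 8 libraries were listed for each member, by the root mean square difference of centred log2 CPM among 11486 genes with at least 5 CPM on average. For SNAI1 they were CCDC151 (0.16), SNN (0.19) and REPIN1 (0.19), and for SNAI2 ZNF74, the pseudogene WASH5P and FBXL18 (0.20, 0.20 and 0.24). CDH1 was closest to CADM2, SMARCA1 and MMP16 (0.17, 0.19 and 0.19), and EPCAM to IFI27L1, RMC1 and WDR27 (0.09, 0.10 and 0.10). VIM was closest to CNN2, SYT7 and EMP2 (0.11, 0.13 and 0.13), ZEB1 to ITSN2, ZNF587 and UTP20 (0.05, 0.06 and 0.07), and FN1 to PLXNB2, COL6A1 and ANO8 (0.17, 0.18 and 0.19). The libraries share depth and scaling, and these values describe likeness only.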

How the data were processed

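Per the labels' protocols, PC3 cells in 3D culture were transfected or treated, and libraries were made with a stranded mRNA kit. The authors deposited raw counts per gene and library and TPM in 1 table, and their own comparisons as a signed fold change, here treated as a score, with p-values from a test not stated there. Tools named in the submitters' processing notes, on GRCh38, were HISAT2 2.10, Bowtie2 2.3.5.1, Trimmomatic 0.38 and edgeR, without their roles. The sources used here do not give the counting program, annotation or strand setting.

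The counts were fitted with edgeR 4.0.16 under R 4.3.3 (glmQLFit, robust, glmQLFTest, two-sided) after TMM scaling and filterByExpr at a minimum count of 10, which left 16488 of 17010 genes. All 8 libraries entered 1 fit of 4 groups without covariates, with 4 residual degrees of freedom. Calls used Benjamini-Hochberg adjustment over all genes at 0.05. The SE is the absolute log2 fold change divided by the square root of F. No replicate pair lay within sampling noise (chi-square per degree of freedom 141 with SF3B2 siRNA, 54.0 with control siRNA, 295 with pladienolide B and 73.2 with DMSO), so each library counted once. The fit was tested on simulated counts with a small set of genes changed, which does not cover a drug that called 68% of all genes.

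The members and lists were chosen with earlier results of these data known. From each list the text names up to 4 called genes with at least 5 CPM on average and the largest change, or 2 with the smallest p where none is called, with exceptions said. Some genes under this rule are not reported here. The 14 alternatives were scaling by relative log expression, scaling by library size, no filter, DESeq2 1.42.0, a fit of only the 4 libraries compared, the replicate number as a block, and leaving out each of the 8 libraries, where the lone library of a group is assumed to vary like the other groups. Exon numbers are of GENCODE release 44, positions and promoters of RefSeq. Figures were drawn with matplotlib 3.10.9.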

Additional observations from a re-analysis of the deposited data

Results flagged for a closer look

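Of the members, the targeted gene and the list genes named for pladienolide B, 26 had effects of the 2 treatments that differed by the test of the difference itself, SF3B2 siRNA minus pladienolide B in log2 units, at an adjusted p under 0.05 (edgeR), as did 53.7% of all genes tested. Among the members these were CDH1 (2.38), VIM (2.78), SNAI1 (−2.87) and SNAI2 (−1.84), and the targeted gene SF3B2 had −3.94. Among junction genes they were DSC2 (3.603), PKP2 (3.51) and LLGL2 (3.39), and among identity genes EHF (4.21), KRT15 (4.85), ESRP1 (3.65) and MAP7 (3.47). The transcription factors were HMGA2 (3.57), FOXM1 (−2.49), TCF12 (2.76) and ETS1 (1.94), and the mesenchymal genes NT5E (3.82), LOX (4.72) and CDH11 (3.21). In the TGF-beta pathway they were TGFBR2 (2.84), SMAD7 (−2.12) and SMAD4 (−2.75), and among the cofactors CTDSP1 (5.37), SIRT1 (−3.73), LATS2 (−3.66) and GSK3B (−2.50). The 21 list genes were named for their pladienolide B change, which this difference contains, so their values describe that change again.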

How the results depend on the processing

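SNAI1, SNAI2, CDH1 and VIM kept their pladienolide B call and direction in all 14 alternatives, and no member was called with SF3B2 siRNA in any. With SF3B2 siRNA, genes called over the table were 0, against 34 by DESeq2, 1 by relative log expression, 1 with only the 4 libraries compared, and 0 to 1 when 1 library was left out. Signs turned for values that were not called in the fit of all 8 libraries. By library size alone ZEB1 and FN1 were −0.58 and −0.68 with pladienolide B, and 0.35 and 0.41 for the difference of effects, a scaling that moved the median of all genes with the drug to −0.97. Relative to that median ZEB1 and FN1 were 0.40 and 0.29, against 0.40 and 0.28 with TMM. With 1 library left out, FN1 ran from −1.04 (without pladienolide B replicate 2, called) to 0.81 (without replicate 1, called) with the drug and from −1.10 to 0.75 for the difference. With SF3B2 siRNA, VIM ran from −0.015 (without control siRNA replicate 2, and also negative without SF3B2 siRNA replicate 1) to 0.29, ZEB1 from −0.64 to 0.054 (without SF3B2 siRNA replicate 1) and EPCAM from −0.11 to 0.050 (without control siRNA replicate 2). Between the controls, ZEB1 ran from −0.018 (without control siRNA replicate 2) to 0.21 and SNAI1 from −0.47 to 0.071 (without DMSO replicate 2). Other causes were not tested. By library size alone the pladienolide B calls were 3313 higher and 8446 lower, against 5358 and 5854, and those of the difference 7323 and 2463, against 4702 and 4159. Identity genes with a called difference numbered 20 by library size alone, against 12. Junction genes numbered 12 without control siRNA replicate 1 and 13 without DMSO replicate 2, against 21, and mesenchymal genes 21 without pladienolide B replicate 2, against 12.

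The labels do not say that a replicate number marks a shared batch, and with 2 libraries a group the numbers were not taken as pairs. The deviations of same-numbered libraries correlated positively in all 6 pairs of groups, at 0.1183 (pladienolide B and DMSO) to 0.4286 (control siRNA and DMSO), with 0.3949 for SF3B2 siRNA and control siRNA. The SF3B2 siRNA library had a lower CDH1 to VIM ratio than the same-numbered control siRNA library both times. With the replicate number as a block, pladienolide B called 11736 genes and 5 members, SF3B2 siRNA 0, and the difference 9687, and no member changed its call.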
